A study of Mus musculus with 2 samples.

Results

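The genes described here are 10 mouse genes of the AP-1 transcription factor and of the immediate early response, namely Jun, Junb, Jund, Fos, Fosb, Fosl2, Atf3, Egr1, Ier2 and Ier3. They were chosen by name, as all non-control probes that the array's own annotation assigns to these genes, which gave 11 of 39422 usable probes and 10 of 31894 gene names. Total RNA of 1 liver of an Alb-Cre;CAG-floxed neo-Snail mouse and of 1 liver of a wild-type mouse, both of strain C57BL/6, was labelled with the dye Cy3 and hybridised to 1 array each. Alb-Cre is a Cre recombinase that the hepatocyte-active albumin promoter drives, and CAG is a strong general promoter. By its name, the floxed neo cassette keeps the Snail transgene silent until Cre removes it. The labels do not give the age or sex of the animals, whether either RNA was pooled, or whether a tumour was in the sampled tissue. The comparison asks how gene expression in the liver of the Alb-Cre;CAG-floxed neo-Snail genotype differed from that of wild-type liver.

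AP-1 is a dimer of basic leucine zipper proteins, in which a Jun protein pairs with another Jun protein or with a protein of the Fos or ATF families. Many of its genes, with Egr1, Ier2 and Ier3, are immediate early genes: growth factors, cytokines and cell stress raise their transcription within minutes, through MAP kinases and without new protein synthesis, and many of their transcripts are short-lived. In mouse liver, Jun is known for its part in regeneration after hepatectomy and in tumour formation.

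With 1 array per group there was no replicate, which leaves the livers without a test or a p-value between them. Snai1, the gene of the transgene, had a signal of 22.3 in the library with the transgene and 23.2 in the wild-type library, a log2 difference of -0.44 ± 0.32. It was not higher, so the first is called the library labelled Snail throughout. Whether its single probe detects the transgene's transcript is not given in the sources used here. Signals are the scanner software's processed signals, and every fold or log2 difference, the library labelled Snail over or minus wild-type, is of signals scaled to each array's 75th percentile, which was 302 in the library labelled Snail and 233 in the wild-type library. The ± after a log2 difference is the scanner software's own error for 1 spot on each array, which holds array noise only. Among probes printed several times, single spots of a probe gave log2 differences with a median SD of 0.19 at signals under 100 and 0.04 above 1000. Of the non-control spots, 54.0% were well above background in the library labelled Snail and 50.7% in the wild-type library, by the software's own call. A difference was counted from 2-fold.

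The members did not move as a group. Jun was higher in the library labelled Snail and Egr1 was lower, Jund and Fosl2 lay within the array noise of no difference, and Ier2 was lower by just under 2-fold. Atf3 and Fosb were well above background in the library labelled Snail only. Junb, Fos and Ier3 were well above background on neither array. Of the 10 members, 5 were thus measured on both arrays, of which 1 was higher and 1 was lower by at least 2-fold. Over all 15466 genes with a value on both arrays, 3.96% were higher and 6.34% were lower by at least 2-fold. The median log2 difference of the 5 members was -0.02, against -0.03 over all genes measured.

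**Figure D1:**
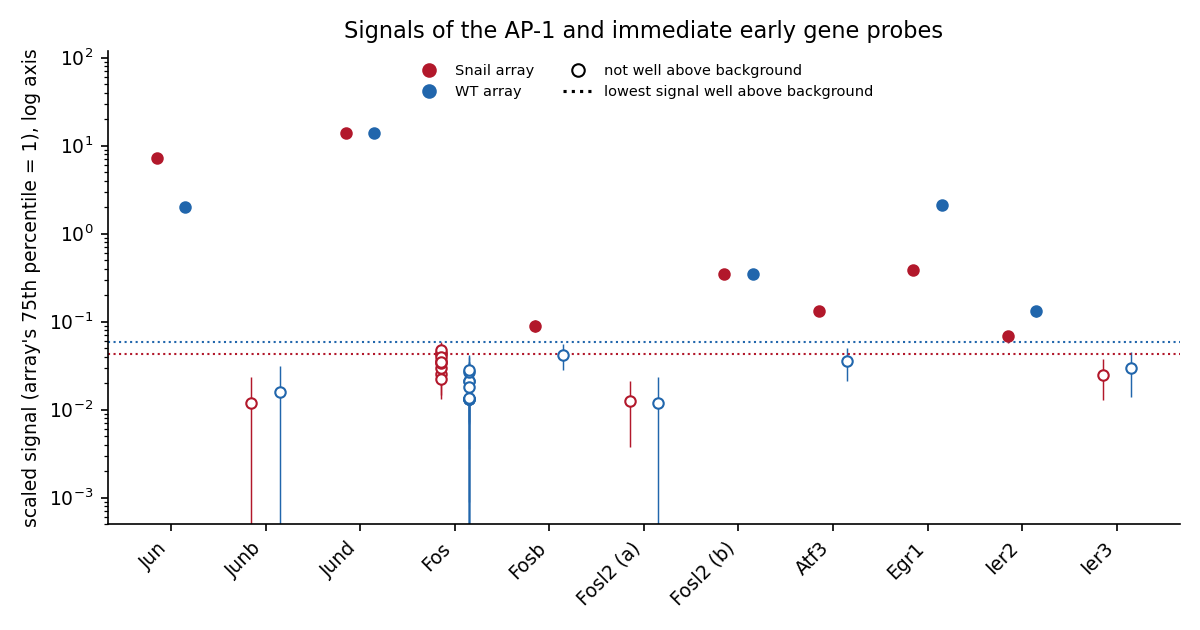
Scaled signal of each probe of the 10 genes on a log axis, in the library labelled Snail (red, left of each pair) and in the wild-type library (blue). Each point is 1 spot with the scanner software's error, open where the spot was not well above background, and the dotted lines give the lowest signal well above background on each array. Jun stood higher in the library labelled Snail, Egr1 and Ier2 stood lower, and Fosl2 is shown by both of its probes, (a) on chromosome 5 from 32455088 and (b) from 32460076 (mm9).

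Jun encodes c-Jun, the most potent activator among the Jun proteins. Its single probe lies on chromosome 4 from 94716928 to 94716987 (mm9, minus strand). Jun had a signal of 2209 in the library labelled Snail and 471 in the wild-type library. After scaling, it was 3.61-fold higher, a log2 difference of 1.85 ± 0.20. Of the 15466 genes measured on both arrays, 156 had a larger difference upward. The 250 bases before its start hold the pair of sites through which c-Jun is known to act on its own gene, and are shown for that reason. They lie at chr4:95052223-95052472 on the minus strand (RefSeq, GRCm38.p6). Capitals mark TTACCTCA, from base -164 to -157, and TGACATCA, from base -45 to -38, counted back from the start.

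Jun: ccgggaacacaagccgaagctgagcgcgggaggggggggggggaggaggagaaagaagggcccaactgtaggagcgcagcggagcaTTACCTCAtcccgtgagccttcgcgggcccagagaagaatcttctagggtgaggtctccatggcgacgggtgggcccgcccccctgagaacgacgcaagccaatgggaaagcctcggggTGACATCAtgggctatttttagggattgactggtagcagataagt

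Over 32851 promoter windows of the same 300 bases in all, TTACCTCA was present in 0.889% and TGACATCA in 3.62%, on either strand. Among the 8 members with a promoter in the table, neither was found outside Jun. Both were searched as described sites of the Jun promoter, so finding them in Jun was set by that choice. The matches are a description of the sequence, and the arrays hold no measure of binding there.

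Junb and Jund encode the other Jun proteins, of which JunD is the one that is present at steady levels in resting cells. Jund had a signal of 4187 in the library labelled Snail and 3272 in the wild-type library. Scaled, these were within noise, with a log2 difference of -0.02 ± 0.20 at the probe on chromosome 8 from 73224436 to 73224495 (mm9). The sign of this small value turned under other scalings, to 0.13 under quantile normalization. Jund therefore showed no difference in either direction beyond the software's error. The Junb probe, on chromosome 8 from 87501881 to 87501940 (mm9), had signals of 3.59 in the library labelled Snail and 3.66 in the wild-type library. On both arrays these are surrogates that the software writes in place of a signal indistinguishable from background, so nothing about Junb can be read from them. Such dim genes were common: 45.7% of all gene names were well above background on neither array.

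Fos, Fosb and Fosl2 encode partners of the Jun proteins. The Fos probe, on chromosome 12 from 86817900 to 86817959 (mm9), was printed 10 times, and no spot was well above background on either array. Its spots had signals from 6.84 to 14.5 in the library labelled Snail, with a median of 10.7, and from 3.06 to 6.55 in the wild-type library, with a median of 3.71. The scaled signal was higher in the library labelled Snail at all 10 positions, and the scaled range was 0.0226 to 0.0481 in the library labelled Snail, against 0.0131 to 0.0281 in the wild-type library. Over the 7 spots not marked as outliers it was 0.0226 to 0.0481 in the library labelled Snail and 0.0132 to 0.0213 in the wild-type library, so the ranges overlapped only through the outlier spots. By the software's test of a spot against its background, the p-value was under 0.01 for 10 spots in the library labelled Snail and for 6 in the wild-type library, where 4 were surrogates. The 10 spots are technical copies of 1 hybridization, and no fold is given for a gene that is well above background on neither array. No share of other dim probes with the same pattern is given beside this count, so it describes these spots only.

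**Figure D2:**
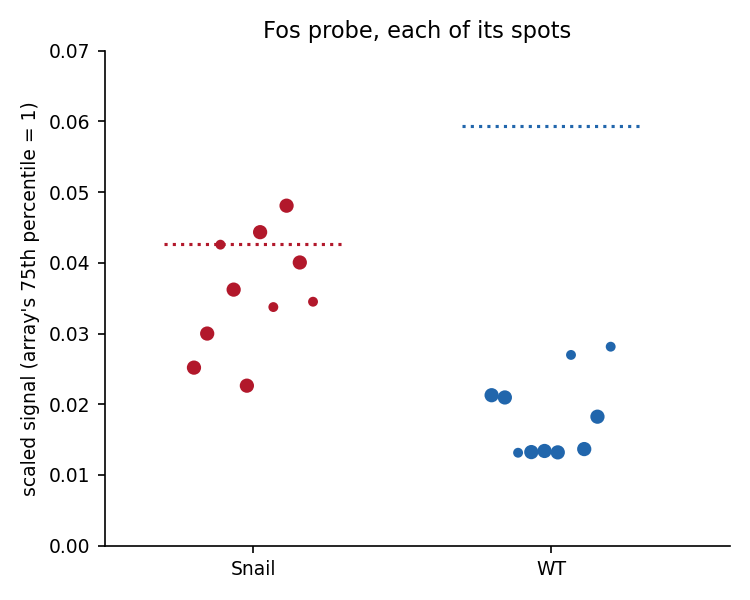
Scaled signal of each of the 10 spots of the Fos probe in the library labelled Snail and in the wild-type library, with the 3 spots marked as outliers drawn smaller and the lowest signal well above background on each array as a dotted line. Spots ran from 0.0226 to 0.0481 in the library labelled Snail and from 0.0131 to 0.0281 in the wild-type library (to 0.0213 without the outlier spots), and none was called well above background.

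Fosb had a signal of 27.2 in the library labelled Snail, where it was well above background, and of 9.86 in the wild-type library, where it was not. This makes it at least 1.52-fold higher, counted against 13.8, the lowest signal well above background on the wild-type array. Its probe lies on chromosome 7 from 19888168 to 19888227 (mm9, minus strand). Fosl2, which encodes Fra-2, was measured by the probe on chromosome 5 from 32460076 to 32460135 (mm9). Its signals were 105 in the library labelled Snail and 81.8 in the wild-type library, a log2 difference of -0.02 ± 0.22. A second Fosl2 probe, from 32455088 to 32455147, had signals of 3.79 in the library labelled Snail and 2.78 in the wild-type library and was not well above background in either.

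Atf3 encodes a stress-induced basic leucine zipper protein that pairs with Jun proteins. It had a signal of 40.1 in the library labelled Snail, well above background, and of 8.37 in the wild-type library, not well above it. By the same floor it was at least 2.24-fold higher. The probe lies on chromosome 1 from 192994547 to 192994606 (mm9, minus strand). Members seen in the library labelled Snail only were thus 2 of 10, against 4.37% of all gene names, and none was seen in the wild-type library only, against 1.45%. A gene that is seen on 1 array only has to differ, so this count is a description.

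The promoters of Atf3, Fos, Fosb and Junb share the letters TGACG, the half-site of the cAMP response element (CRE), on one strand or the other. They were found in 4 of the 8 member promoters in the table, against 20.8% of all windows. The full CRE, TGACGTCA, was in none of the 8 and in 1.79% of all windows. The AP-1 site TGANTCA was likewise in none of the 8 and in 7.81% of all windows, and TGACG also lies inside the full CRE. The EGR site GCGTGGGCG (0.612% of windows) and the CArG box, the serum response factor site (1.63%), were in none of the 8. The window ends 250 bases before the start, so it says nothing of sites farther out. For the members with a signal in the library labelled Snail only, and for Fos, the 250 bases before the start are given with each TGACG or its reverse complement in capitals (RefSeq, GRCm38.p6), for Atf3 at chr1:191183334-191183583 (minus strand), for Fosb at chr7:19310046-19310295 (minus strand) and for Fos at chr12:85473640-85473889 (plus strand).

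Atf3: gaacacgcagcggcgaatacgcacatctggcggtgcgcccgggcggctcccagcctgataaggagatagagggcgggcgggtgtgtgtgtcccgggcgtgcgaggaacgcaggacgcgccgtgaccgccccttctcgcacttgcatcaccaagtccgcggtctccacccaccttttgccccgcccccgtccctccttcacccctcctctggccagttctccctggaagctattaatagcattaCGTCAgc

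Fosb: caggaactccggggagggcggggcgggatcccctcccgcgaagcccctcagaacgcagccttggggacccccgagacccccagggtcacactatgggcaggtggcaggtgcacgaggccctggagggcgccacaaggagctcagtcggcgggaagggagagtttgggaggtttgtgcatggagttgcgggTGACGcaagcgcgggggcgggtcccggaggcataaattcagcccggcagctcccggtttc

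Fos: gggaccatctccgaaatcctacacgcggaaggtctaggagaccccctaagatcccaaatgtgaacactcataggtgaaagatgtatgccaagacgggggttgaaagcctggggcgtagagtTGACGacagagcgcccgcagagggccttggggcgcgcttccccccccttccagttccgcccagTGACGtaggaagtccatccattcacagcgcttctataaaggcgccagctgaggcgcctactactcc

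In Atf3 the half-site lies from base -7 to -3, in Fosb from -60 to -56, and in Fos from -66 to -62 with another from -129 to -125. Junb holds it from -106 to -102. Atf3 and Fosb are printed because they were seen in the library labelled Snail only, so their signals are not set against the half-site.

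Egr1 encodes a zinc finger transcription factor of the immediate early response and is no AP-1 subunit. It had a signal of 117 in the library labelled Snail and 491 in the wild-type library, on the probe that spans 35024395 to 35024454 of chromosome 18 (mm9). It was 5.45-fold lower in the library labelled Snail, a log2 difference of -2.45 ± 0.21, and 157 of the 15466 genes had a larger difference downward. Egr1 and Jun thus lay 4.30 apart on the log2 scale, in opposite directions.

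Ier2 encodes a short-lived nuclear protein, and Ier3 a regulator of cell survival. Ier2 had a dim signal of 20.6 in the library labelled Snail and 30.5 in the wild-type library, on the probe that spans 87186214 to 87186273 of chromosome 8 (mm9, minus strand). It was 1.92-fold lower, a log2 difference of -0.94 ± 0.30. Ier2 crossed 2-fold under quantile normalization and under loess, at -1.03 in the second, and with normexp background correction it was -0.45. Ier3 was well above background on neither array, with signals of 7.56 in the library labelled Snail and 6.89 in the wild-type library, on the probe that spans 35959528 to 35959587 of chromosome 17 (mm9).

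**Figure D3:**
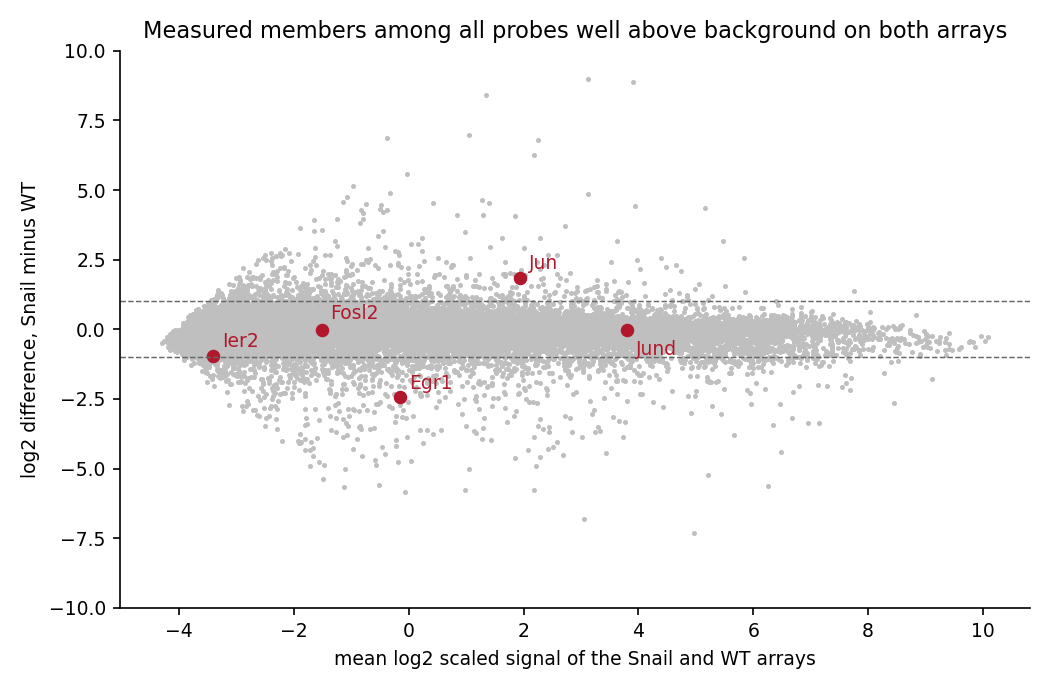
Log2 difference, the library labelled Snail minus wild-type, against the mean log2 scaled signal for every probe well above background on both arrays (grey), with the 5 measured members in red and 2-fold as dashed lines. Jun at 1.85 and Egr1 at -2.45 lie outside the main cloud, and Jund at -0.02 and Fosl2 at -0.02 lie within it.

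Of 18 other basic leucine zipper genes, mainly of the ATF, BATF and MAF families, 16 had a value on both arrays. Past 2-fold, 1 (6.25%) was higher and 1 (6.25%) lower, against 3.96% and 6.34% of all genes, and the median log2 difference was -0.01. Maf, a large MAF protein that can pair with Jun and Fos, had a signal of 1812 in the library labelled Snail and 677 in the wild-type library and was 2.06-fold higher, though under 2-fold without a filter on dim probes, at 0.88 on the log2 scale. Atf5, a stress-response factor abundant in liver, had a signal of 22843 in the library labelled Snail and 45032 in the wild-type library and was 2.56-fold lower. Small MAF genes and immune BATF genes stayed under 2-fold. The log2 differences were 0.71 for Mafg, -0.17 for Maff and -0.60 for Mafk. They were 0.88 for Batf, which had a dim wild-type signal of 17.7, 0.09 for Batf2 and 0.40 for Batf3. Fosl1, which encodes Fra-1, was well above background on neither array.

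Among other immediate early genes, more were higher than lower past 2-fold, except with normexp background correction. Of 47 genes on the list 39 were measured on both arrays. Past 2-fold, 8 of them (20.5%) were higher and 3 (7.69%) lower, against the 3.96% and 6.34% of all genes. The median log2 difference was 0.28, against -0.03 over all genes, and 24 of the 39 were above 0. With normexp, 2 of the 39 were higher and 2 lower, against 1.92% and 3.70% of all genes, and the median was 0.18. Without a filter on dim probes the median was 0.08, where that of all genes was -0.47.

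The highest was Gadd45g, a stress-induced growth arrest gene, with a signal of 4562 in the library labelled Snail and 547 in the wild-type library, or 6.42-fold higher. Gadd45b, of the same family, had a signal of 228 in the library labelled Snail and 55.3 in the wild-type library and was 3.18-fold higher. Gadd45a went the other way, with a signal of 22.8 in the library labelled Snail and 56.0 in the wild-type library, 3.19-fold lower. The family was thus split, with 2 genes higher and 1 lower.

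The small GTPase gene Rhob had a log2 difference of 1.78 ± 0.27, the matricellular gene Ccn2 of 1.65 ± 0.23, the kinase gene Plk2 of 1.50 ± 0.22 and the orphan nuclear receptor gene Nr4a1 of 1.22 ± 0.22. Tnfaip3, an inhibitor of NF-kB signalling, was at 1.14 and Ier5 at 1.09, both with wild-type signals under 32. These 6 genes had dim wild-type signals. The normexp background correction was run with an offset of 50 added to each signal, which compresses dim signals. With it each of these 6 genes fell under 2-fold, as did Gadd45a. Ier5 did so without a filter on dim probes too. Gadd45g at 2.64 and Gadd45b at 1.02 stayed past it. Of the lower genes, Csrnp1, a nuclear protein gene, was 2.71-fold lower and Phlda1 2.15-fold lower. Phlda1 fell short of 2-fold in the authors' value table and under quantile normalization. Egr2, Egr3 and Egr4, the relatives of Egr1, were well above background on neither array, as were Nr4a3, Ptgs2 and Arc.

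**Figure D4:**
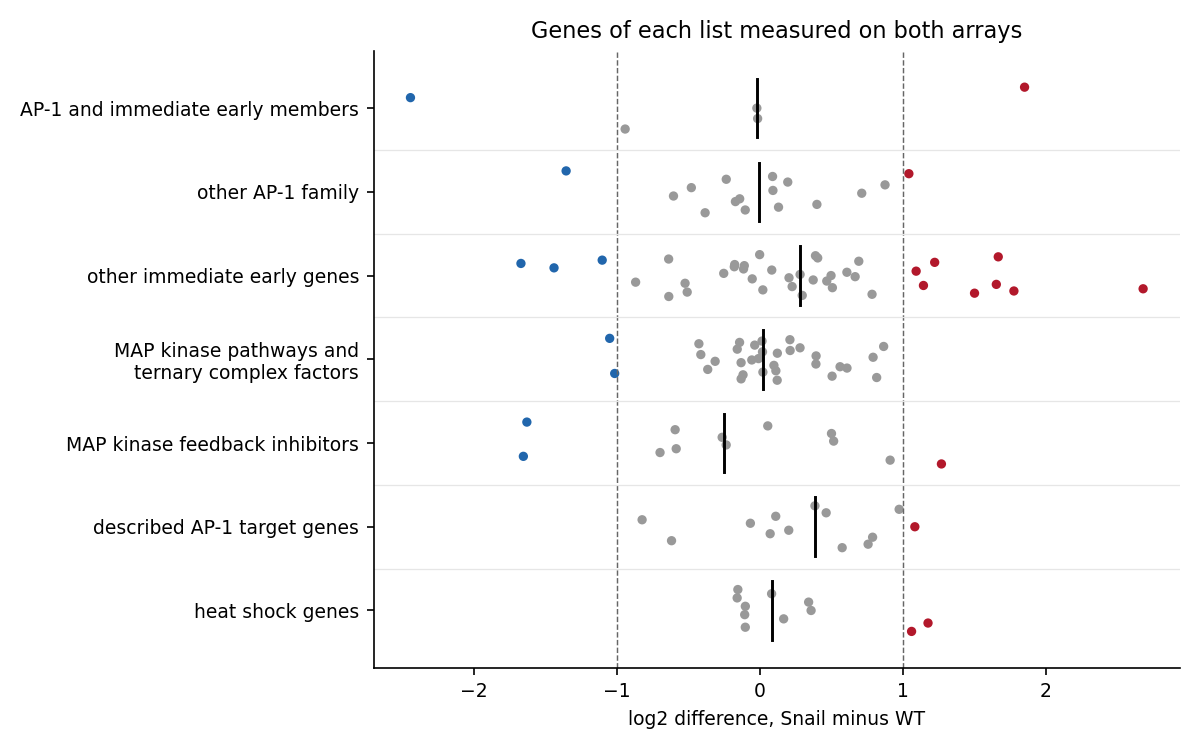
Log2 difference, the library labelled Snail minus wild-type, of each gene measured on both arrays in the member list and 6 other lists, with the list median as a black bar, genes past 2-fold in red where higher and in blue where lower. The list of other immediate early genes held 8 higher and 3 lower genes of 39, and the kinase list 0 higher and 2 lower of 32, where 3.96% of all genes were higher and 6.34% lower.

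Of 37 genes of the MAP kinase cascades and of the factors they phosphorylate, 32 had a value on both arrays. Past 2-fold, 0 were higher and 2 (6.25%) lower, against 3.96% and 6.34% of all genes, and the median was 0.02. The share of lower genes was thus close to that over all genes. Mapk9, which encodes the kinase JNK2 that phosphorylates c-Jun, was 2.07-fold lower as the mean of its 2 probes, and the JNK scaffold gene Mapk8ip1 was 2.02-fold lower. Both fell short of 2-fold with normexp, at -0.86 and -0.71. Mapk8, which encodes JNK1, was well above background in the library labelled Snail only, with an observed ratio of 1.20-fold.

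Of 20 genes of feedback inhibitors of the same cascades 12 had a value on both arrays. Past 2-fold, 1 (8.33%) was higher and 2 (16.7%) lower, against 3.96% and 6.34% of all genes. The median was -0.25, and between -0.47 without a filter on dim probes and -0.13 in the authors' value table. Without that filter the median of all genes was also -0.47. A signal under its array's lowest signal well above background is then raised to it, so a gene under it on both arrays gets this value. Dusp1, an immediate early phosphatase that acts on JNK and p38, had a signal of 379 in the library labelled Snail and 121 in the wild-type library. It was 2.41-fold higher, and just under 2-fold with normexp, at 0.96. Dusp10, which also acts on JNK and p38, was seen in the library labelled Snail only and was at least 2.06-fold higher. Dusp6, the phosphatase of ERK, had a signal of 676 in the library labelled Snail and 1612 in the wild-type library and was 3.10-fold lower. Trib3, a stress-induced pseudokinase gene, was 3.15-fold lower.

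Of 24 described AP-1 target genes 13 had a value on both arrays, and 10 of them were above 0. The median was 0.39, against -0.03 over all genes measured. The median turned to -0.27 without a filter on dim probes, where that of all genes was -0.47, and was 0.25 with normexp or the brightest probe and 0.61 with the stricter filter. Past 2-fold, 1 (7.69%) was higher and 0 were lower, against 3.96% and 6.34% of all genes. The number higher was 2 with the brightest probe, 2 of 8 with the stricter filter and 0 with normexp. The shares of all genes higher were then 3.98%, 4.24% and 1.92%. S100a6 was 2.12-fold higher (0.80 with normexp). Hmox1 was 1.73-fold higher as the mean of its 2 probes, whose log2 differences lay 0.94 apart. The cyclin gene Ccnd1 had a log2 difference of 0.46. The matrix metalloproteinase genes Mmp3, Mmp9, Mmp10 and Mmp13 and the cytokine gene Il6 were well above background on neither array. Among 11 measured heat shock genes, which respond to cell stress through another factor, 2 (18.2%) were higher and 0 lower past 2-fold, against the same shares of all genes, and the median was 0.08 (-0.01 without a filter on dim probes). These were the small heat shock protein gene Hspb1, 2.26-fold higher, and the cochaperone gene Dnajb1, 2.09-fold higher.

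Some markers of liver cell types also differed between the 2 libraries, not all in the same direction, and their part in the differences above was not tested. All 11 hepatocyte markers were measured and lower than 0, with a median of -0.74, against -0.03 over all genes measured. Past 2-fold, 3 of them (27.3%) were lower, against 6.34% of all genes. Their summed scaled signal was 3198 in the library labelled Snail and 5155 in the wild-type library. Of 10 Kupffer cell and macrophage markers 9 were measured, with a median of 0.15 and sums of 113 in the library labelled Snail and 92.4 in the wild-type library. Marco, 2.83-fold higher, was the only 1 of the 9 (11.1%) past 2-fold, against 3.96% of all genes higher. Of 10 neutrophil markers 6 were measured, with a median of 0.51. The list's sums, 81.4 in the library labelled Snail and 76.6 in the wild-type library, came mostly from Csf3r, whose log2 difference was 0.02. Past 2-fold, 2 of the 6 (33.3%) were higher and 0 lower, against 3.96% and 6.34% of all genes. These were S100a8, 3.96-fold higher, and S100a9, 2.96-fold higher. Another 3 of the 10 were seen in the library labelled Snail only, against 4.37% of all gene names. Mpo was at least 2.08-fold higher, but the bounds were only 1.16-fold for Cxcr2 and 1.06-fold for Retnlg. Ly6g at 0.92, Elane at 0.10 and Camp at -0.11 on the log2 scale stayed under 2-fold. Of 8 sinusoidal endothelial markers all were measured, with a median of -0.04. Lyve1, 3.98-fold higher, was the only 1 of the 8 (12.5%) past 2-fold. Of 10 stellate cell and myofibroblast markers 8 were measured, with a median of -0.88. By at least 2-fold, 1 of the 8 (12.5%) was higher and 3 (37.5%) lower, against 3.96% and 6.34% of all genes. The stellate cell and myofibroblast markers differed in direction. The collagen genes Col1a1, 2.50-fold higher, and Col3a1, at 0.95 on the log2 scale, were above 0, and Acta2, the smooth muscle actin gene of myofibroblasts, was seen in the library labelled Snail only, at least 1.93-fold higher. The other 6 measured were below 0, down to -1.92 for Colec10 and -2.22 for Hhip. Medians were 0.11 for T and NK cells (6 of 10 measured), 0.48 for B cells (3 of 5 on the array), 1.06 for cholangiocytes (2 of 7) and -0.37 for erythroid cells (4 of 6), and the cholangiocyte keratin genes Krt7 and Krt19 were well above background on neither array. In whole tissue, fewer cells of a type and less RNA per cell cannot be told apart.

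**Figure D5:**
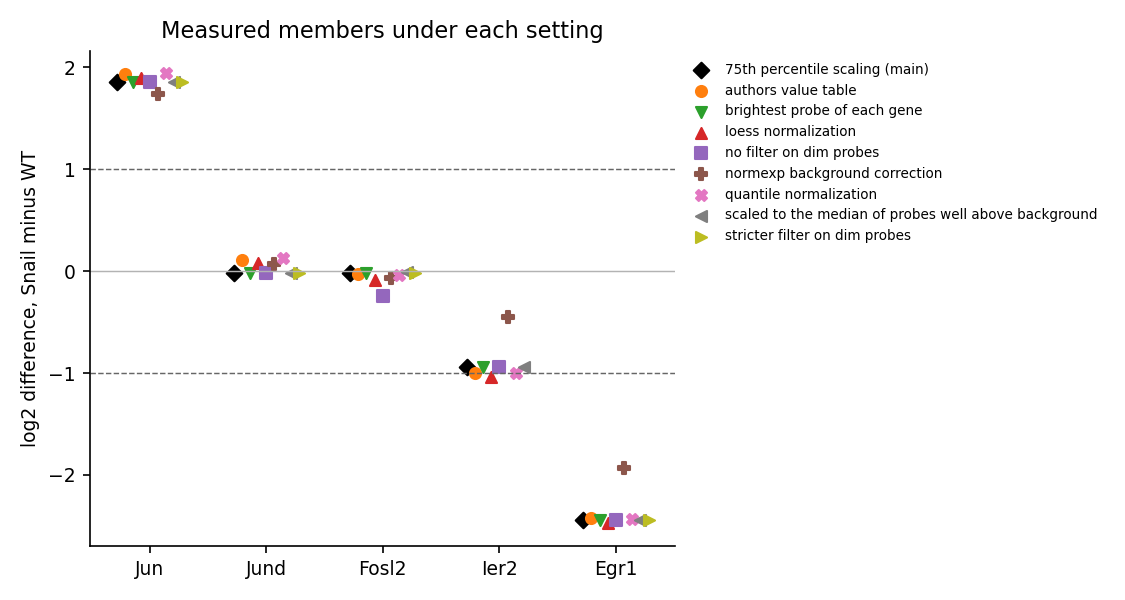
Log2 difference, the library labelled Snail minus wild-type, of the 5 measured members under the 75th percentile scaling and each of 8 alternatives, with 2-fold as dashed lines. Jun stayed between 1.74 and 1.94 and Egr1 between -2.47 and -1.93 under all of them, and Ier2 moved between -1.03 and -0.45.

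Jun and Egr1 kept their direction and stayed past 2-fold under all 8 alternatives, as the plot of members by setting shows.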

How the data were processed

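Total RNA of 2 liver samples was measured on 1-colour Agilent arrays on 1 slide, 1 array per group, grouped by the genotype in the labels. Per the submitters' processing notes, the arrays were read with Agilent Feature Extraction 9.5.1.1. The deposited intensity of a spot had its background subtracted and was detrended within the array, with a surrogate in place of a signal near background and no scaling between the arrays, per the file headers. The deposited p-value of a spot against its background comes from the pixels of 1 spot. A second table, deposited by the authors, holds 1 linear signal per probe and array, with a median of 17.3 in both columns, each following its own array (correlation of log2 values 1.00). Its sorted columns differ by at most 0.108. How it was scaled and centred is not given in the sources used here, and it served as an alternative.

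The processed signal was divided by the 75th percentile of its array (43020 non-control spots) and taken to log2 in Python 3.11.15. Control spots and 287 spots marked as outliers on either array were left out. No spot was saturated. A gene is the mean over its probes well above background on both arrays, and a gene seen on 1 array has a bound against the lowest signal well above background on the other (12.9 in the library labelled Snail, 13.8 in the wild-type library) or the dim probe's own signal, if higher. Of 39429 probes, 66.1% were named through RefSeq accessions (GRCm38.p6, names only), and the others kept the array's name. Probe coordinates are those of the files (mm9). Promoters are RefSeq windows of 250 bases before to 50 after the start, matched for 8 of 10 members. Quantile, loess and normexp alternatives used limma 3.58.1, normexp with an offset of 50. The calculation was tested on simulated data. All members, every list gene at least 2-fold apart and the measured genes of the AP-1 family list could be named. The members and lists were chosen with earlier results of these data known. The number of arrays limits the precision.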

Additional observations from a re-analysis of the deposited data

How the results depend on the processing

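No paired analysis was possible because each group has 1 array and no test was run. The number of members at least 2-fold higher was 1, and 2 without a filter on dim probes, where Atf3 counts at its floor. The number at least 2-fold lower was 1, and 2 under quantile normalization and under loess, where Ier2 crossed the threshold. The members' median of -0.02 was -0.34 without a filter, where all 10 have a value and the median of all genes was -0.47. With normexp, genes past 2-fold numbered 297 higher and 573 lower, against 613 and 980, and 5 of the list genes were higher and 5 lower, against 13 and 8. All of these 10 were among the 21 of the main setting. Of 48 list medians under the alternatives 18 moved by more than 0.08 on the log2 scale, the median spot-to-spot SD. Scaling to the median of bright probes, the brightest probe of each gene, the stricter filter (a signal of 100 on at least 1 array) and the authors' value table changed none of the member counts. Ier2 had no value under the stricter filter. Signal over background limits Junb, Fos and Ier3, which have no fold.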
